A study of Mus musculus with 6 samples.

Results

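Fibroblast growth factor (FGF) ligands and receptors were examined in cells of the mouse lung cancer line Lewis lung carcinoma (LLC), taken from tumours grown with or without bone marrow-derived mesenchymal stem cells (BMSCs). The members were chosen by gene symbol, and comprised the ligands Fgf1, Fgf2, Fgf7, Fgf13 and Fgf21 and the receptors Fgfr1, Fgfr2, Fgfr3, Fgfr4 and Fgfrl1, which are 10 of the 18182 genes listed. LLC cells carrying red fluorescent protein (LLC-RFP) were injected under the skin of wild-type C57BL/6 mice, either alone (LLC alone, 3 libraries) or together with BMSCs (LLC with BMSCs, 3 libraries). RFP-positive cells were then sorted by flow cytometry from the primary cancer sites and their mRNA was sequenced. The labels give neither age nor sex of the mice; the methods name 6-week-old females for the allografts of luciferase-carrying LLC cells. The labels also do not say whether each library came from its own animal, so that p values measure only the spread between these libraries. LLC is 1 established line, and the BMSCs were bought as cultured C57BL/6 cells. The question addressed here was how the genes for FGF signals and their receptors were expressed in the cancer cells of the 2 kinds of tumour.

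FGFs are secreted proteins that bind receptor tyrosine kinases (FGFR1 to FGFR4) together with heparan sulfate on the cell surface. The bound receptors phosphorylate the adaptor FRS2, which passes the signal to the RAS-MAPK and PI3K pathways, and sprouty proteins and dual-specificity phosphatases feed back on it. The hormone-like FGF21 needs beta-klotho (Klb) as a co-receptor, FGF13 is not secreted in the usual way and acts inside cells on sodium channels, and FGFRL1 lacks the kinase domain. FGFs are known as growth signals between the stroma and the epithelium of the lung, and FGFR genes are altered in a part of lung cancers.

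The libraries held 33476347 to 46189113 estimated counts, and 13353 genes passed the filter on low counts. LLC alone replicate 3 stood apart from replicates 1 and 2 of its group, with a chi-square per gene of 58.5 to 60.4 between the libraries against 4.79 between replicates 1 and 2. Replicates 2 and 3 of LLC with BMSCs were also closer to each other (3.03) than to replicate 1 (19.1 to 19.6). Both close pairs still differed by more than sampling noise, and all 6 libraries were kept. Of 10 epithelial and lung markers 9 were listed. Krt8 was abundant and called higher in LLC with BMSCs (log2 fold change 0.19, adjusted p = 0.0374, edgeR's quasi-likelihood test), at 95.3 ± 5.98 FPKM without BMSCs and 110 ± 2.85 FPKM with them (SD, n = 3). Krt18 was low and also called higher (0.0833 ± 0.05 to 0.653 ± 0.03 FPKM). Napsa, an aspartic protease of lung epithelium, was present in every library at 1.38 to 2.11 FPKM. Epcam, Cdh1, Nkx2-1 and Sftpc had at most 5 counts in any library. FPKM is the number of fragments divided by transcript length and by library total.

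Of the 10 members, 6 passed the filter, and 4 of these passed edgeR's quasi-likelihood test at an adjusted p of 0.05, while 62.9% of all tested genes did so. Fgfr3 and Fgf1 were higher in LLC with BMSCs, and Fgf21 and Fgfrl1 were lower. Among all tested genes 31.5% were called higher and 31.3% lower. Fgfr1 and Fgf7, the most abundant receptor and ligand, were not called. Fgf2, Fgf13, Fgfr2 and Fgfr4 did not pass the filter. The FPKM ranges of the groups did not overlap for 5 of the 6 tested members, against 70.6% of the tested genes.

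**Figure D1:**
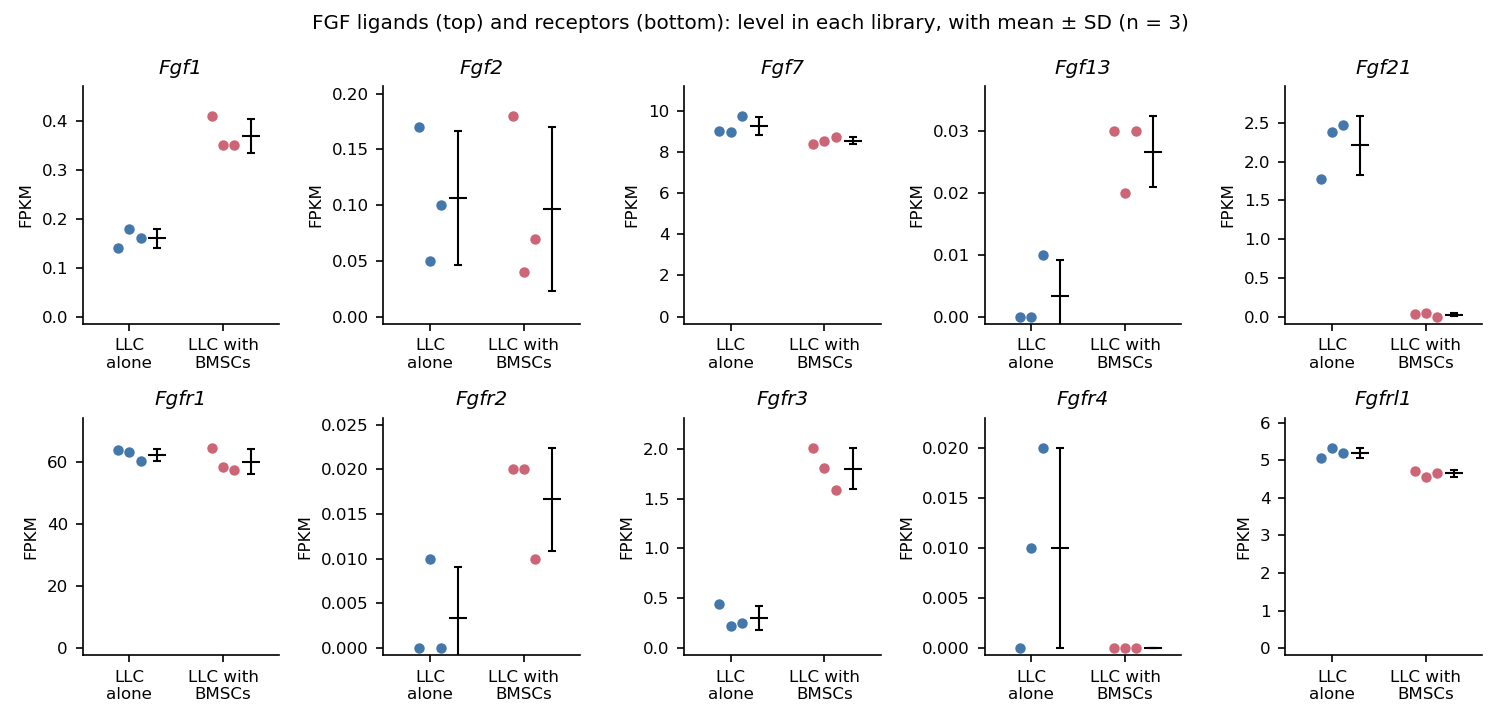
FPKM (y axis, linear, a separate scale in each panel) of the 10 FGF members in each of the 3 libraries of LLC alone (blue) and the 3 of LLC with BMSCs (red), with the mean and SD of each group in black. Fgf21 lies between 1.78 and 2.47 in LLC alone and at most at 0.05 in LLC with BMSCs, Fgfr3 is higher in LLC with BMSCs, and Fgfr1 overlaps between the groups.

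The promoters of the 2 members with the largest called changes are printed first, since Fgf21 is a known target of the stress factor ATF4 and the Atf4 gene itself is compared with it further on. They were taken from RefSeq (GRCm38.p6) and run from 250 bases before to 50 bases after the annotated start, 5′ to 3′ on the strand of the gene. Promoters were examined for 8 of the 10 members. Those of Fgf1 and Fgfr1 were left out of the search, which does not mean that RefSeq lacks them. Capitals mark a match to TGATGCAAT, the composite site bound by C/EBP and ATF proteins, searched on both strands.
Fgf21 promoter, chr7:45615441-45615740, minus strand: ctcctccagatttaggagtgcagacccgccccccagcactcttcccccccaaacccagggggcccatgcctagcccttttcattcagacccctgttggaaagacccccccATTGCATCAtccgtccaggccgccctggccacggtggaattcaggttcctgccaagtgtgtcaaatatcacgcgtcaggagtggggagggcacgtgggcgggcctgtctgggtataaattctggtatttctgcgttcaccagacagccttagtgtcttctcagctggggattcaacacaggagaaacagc
Fgfr3 promoter, chr5:33721474-33721773, plus strand: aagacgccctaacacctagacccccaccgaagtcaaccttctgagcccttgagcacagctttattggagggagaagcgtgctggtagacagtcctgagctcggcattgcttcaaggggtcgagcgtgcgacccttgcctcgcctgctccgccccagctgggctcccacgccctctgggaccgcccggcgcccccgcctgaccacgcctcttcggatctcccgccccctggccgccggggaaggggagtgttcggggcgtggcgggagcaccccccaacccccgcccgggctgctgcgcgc
The match in the Fgf21 promoter begins 140 bases before the start and lies on the strand opposite to the gene. This motif occurred in 63 of 32851 promoters of the same length (0.192%), or in 60 of 27025 genes. Neither of the 2 Fgfr3 promoters in RefSeq holds it, and the one printed is 69.7% G and C against 58.0% for Fgf21. The STAT motif TTCNNNGAA, searched because the study concerned STAT3, occurred in 8.30% of all promoters and was not present in these letters for any of the 8 members. A match is a description of the letters and not evidence of binding.

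Among the ligands, Fgf7, the keratinocyte growth factor usually made by mesenchymal cells and acting on the epithelial form of FGFR2, had the highest level. It lay on chromosome 2 (126034658 to 126091185, plus strand; gene positions are GENCODE M21 on GRCm38, since the files give none) and overlapped no exon of another gene. LLC alone had levels of 9.0, 8.98 and 9.74 FPKM, and LLC with BMSCs had 8.40, 8.55 and 8.70 FPKM. The ranges did not overlap, but the log2 fold change was only -0.13 ± 0.06 (SE; 95% interval -0.27 to 0.01), and the difference did not pass edgeR's quasi-likelihood test (adjusted p = 0.0876). It did pass when the trend of each library over gene length was removed (log2 fold change -0.19, adjusted p = 0.00681). By mean FPKM, Fgf7 lay near the middle of the tested genes, with 50.6% of them above it.

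Fgf21, a stress-induced hormone best known from liver, was lower in LLC with BMSCs and had the largest change of the members. The gene lies on chromosome 7 (45613886 to 45615490, minus strand) and shares no exon with another gene. Its estimated counts were 72, 70 and 100 in LLC alone and 1, 2 and 0 in LLC with BMSCs, or 1.78, 2.39 and 2.47 FPKM against 0.03, 0.05 and 0 FPKM. Every library of LLC alone lay far above every library of LLC with BMSCs, which were all at or below 3 counts, the level taken as the limit of detection. The normalized counts gave an 86.2-fold lower level in LLC with BMSCs (95% counting interval 29.1 to 421, for counting error only), and edgeR's quasi-likelihood test gave an adjusted p of 1.32e-05. The test was also passed in all 17 other settings in which the gene could be tested, leaving out each library in turn included. Of the 13353 tested genes, 16 had a larger fitted fall. Because LLC with BMSCs was at the limit of detection, the fitted fall of Fgf21 depends on the prior count added in the fit. Its place among the tested genes is therefore not a measured size. Fgf21 passed the filter on low counts only through LLC alone. In these bulk samples, fewer cells that express a gene and less of its RNA per cell cannot be told apart.

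Fgf1, which binds all 4 signalling receptors and lacks a usual secretion signal, was higher in LLC with BMSCs but stayed at a low level. It was at 0.14, 0.18 and 0.16 FPKM in LLC alone and at 0.41, 0.35 and 0.35 FPKM in LLC with BMSCs. These values rest on 23 to 28 and 59 to 70 counts per library, and the groups did not overlap. The log2 fold change was 1.20 ± 0.17 (SE), a 2.30-fold rise, with an adjusted p of 0.000561 in edgeR's quasi-likelihood test. It was called in each of the 16 other settings that tested it.

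The other ligand members were near the limit of detection. Fgf2, a broadly expressed mitogen, had 5, 1 and 3 counts in LLC alone and 5, 1 and 2 in LLC with BMSCs, with ranges that overlapped fully. Its exons overlap those of Gm43439 on the same strand and those of Nudt6 on the opposite strand, which had 155 to 297 counts, and whether the counting used strand is not given in the sources used here. Fgf13 had at most 1 count in LLC alone and at most 3.01 in LLC with BMSCs, so both groups were at the limit and no fold is given. The sodium channel subunits that FGF13 is known to act on were also low. Of 14 partner genes, which were these subunits and Mapk8ip2, 5 could be tested. Scn1a rose (0.0433 to 0.143 FPKM) and Scn11a fell (0.213 to 0.0200 FPKM), and none of the list reached a mean of 1 FPKM in either group.

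Of the 17 FGF ligands outside the members, 9 were listed and 2 passed the filter. Both of these were called higher in LLC with BMSCs, against 31.5% of all tested genes. Without the filter on low counts, 2 of the 9 listed were called higher and 2 lower. In that setting 4399 of all tested genes were called higher and 4249 lower. Fgf11, an intracellular relative of FGF13, was at 1.35, 1.33 and 1.04 FPKM in LLC alone and at 1.77, 1.70 and 1.76 FPKM in LLC with BMSCs (log2 fold change 0.57 ± 0.14, SE; adjusted p = 0.00821 in edgeR's quasi-likelihood test). Fgf10, like Fgf7 a ligand of mesenchymal origin for the epithelial form of FGFR2, was at 0 in the 3 libraries of LLC alone and had 23, 21 and 20 counts in LLC with BMSCs. It passed the filter only through the libraries of LLC with BMSCs. Fgf10 shares exon positions with Gm16263 on the opposite strand. Against LLC alone it was at least 6.51-fold higher, computed with a floor of 3 counts per library (adjusted p = 0.000193). At 0.10 to 0.11 FPKM, its level remained far below that of Fgf7.

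Fgfr1 was the dominant receptor in both groups. It was at 63.8, 63.3 and 60.2 FPKM in LLC alone and at 64.7, 58.3 and 57.4 FPKM in LLC with BMSCs, and 10.4% of the tested genes had a higher mean level. The groups overlapped, with the highest and the lowest of the 6 values both in LLC with BMSCs. The log2 fold change was -0.07 ± 0.07 (SE; 95% interval -0.23 to 0.08), and the adjusted p was 0.368 in edgeR's quasi-likelihood test. A small decrease passed the test when the trend over gene length was removed (log2 fold change -0.31, adjusted p = 0.000778). Of the summed FPKM of Fgfr1 to Fgfr4, Fgfr1 made up 99.5% in LLC alone and 97.1% in LLC with BMSCs.

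The Fgfr1 signal came from 5 transcripts, of which 3 held most of it. A transcript of 5035 bases held 44.4% ± 2.75 of the Fgfr1 FPKM in LLC alone and 42.2% ± 2.74 in LLC with BMSCs (SD, n = 3), and one of 5025 bases held 36.4% ± 4.27 and 39.9% ± 2.55. A transcript of 4758 bases held 16.0% ± 6.52 and 14.7% ± 1.05. The differences between the groups in these 3 shares were smaller than the SD within LLC alone. The other 2 were assembled by the authors' pipeline. One held 3.15% ± 0.46 in LLC alone and 1.501% ± 1.22 in LLC with BMSCs, and the other was at 0 in LLC alone and held 0%, 1.29% and 3.64% in LLC with BMSCs. The transcripts were not assigned here to the IIIb and IIIc receptor forms, which differ in the ligands they bind. Fgfr1 lies on chromosome 8 (25513654 to 25575718, plus strand) and shares exon positions with Gm16159 on the opposite strand.

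Fgfr3, the receptor known for restraining bone growth and for activating mutations in bladder cancer, was higher in LLC with BMSCs. LLC alone had 0.44, 0.22 and 0.25 FPKM, and LLC with BMSCs had 2.01, 1.81 and 1.59 FPKM, from 31 to 71 and 232 to 301 counts per library. The lowest library of LLC with BMSCs lay well above the highest of LLC alone, which was replicate 1. The log2 fold change was 2.40 ± 0.21 (SE), a 5.28-fold rise, with an adjusted p of 5.005e-05 in edgeR's quasi-likelihood test. Of all tested genes, 440 had a larger fitted rise. The call held in all 18 other settings, and without LLC alone replicate 3 the log2 fold change was 2.24 (adjusted p = 2.44e-05).

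Fgfr3 was the second of the 4 kinase receptors by level in both groups, and minor beside Fgfr1. Its part of the summed FPKM of Fgfr1 to Fgfr4 was 0.346% to 0.685% in the libraries of LLC alone and 2.7% to 3.01% in those of LLC with BMSCs. Most of it in LLC with BMSCs came from 1 transcript of 3368 bases, which the authors' pipeline had assembled and which is not a RefSeq entry. That transcript was at 0.33, 0 and 0.17 FPKM in LLC alone and at 1.89, 1.61 and 1.53 FPKM in LLC with BMSCs, where it held 92.9% ± 4.0 of the gene. In LLC alone, with few counts, the gene's FPKM was divided differently among transcripts in each library. Fgfr3 lies on chromosome 5 (33721674 to 33737068, plus strand) and shares exon positions with G630022F23Rik on the opposite strand.

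Fgfrl1, the receptor-like member without a kinase, was at 5.06, 5.34 and 5.20 FPKM in LLC alone and at 4.72, 4.56 and 4.67 FPKM in LLC with BMSCs. The groups did not overlap, and the gene fell by 0.18 ± 0.07 on the log2 scale (SE), with an adjusted p of 0.0413 in edgeR's quasi-likelihood test. This call was weak, since it was lost in 14 of the 18 other settings, where all settings together gave adjusted p values of 0.00552 to 0.273. It was lost on leaving out any one library except LLC alone replicate 3. The share of the gene assigned to its assembled transcript varied from 8.35% to 54.6% within LLC with BMSCs, so no transcript of Fgfrl1 was compared. The gene lies on chromosome 5 (108692382 to 108706924, plus strand).

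Fgfr2 and Fgfr4 were barely detected. Fgfr2, whose epithelial form is the main receptor of FGF7 and FGF10, had 0, 1 and 0 counts in LLC alone and 5, 4 and 2 counts in LLC with BMSCs. The ratio of the normalized counts was 10.3 with a counting interval of 1.5 to 443, and the FPKM ranges met at 0.01. Exons annotated for Fgfr2 overlap those of Ctbp2 on the same strand, which had 3208 to 4340 counts. Without the filter on low counts it was called higher by edgeR's quasi-likelihood test (adjusted p = 0.0430). Fgfr4, the main FGF receptor of liver, had 0, 1 and 3 counts in LLC alone and none in LLC with BMSCs, which is at the limit in both groups.

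**Figure D2:**
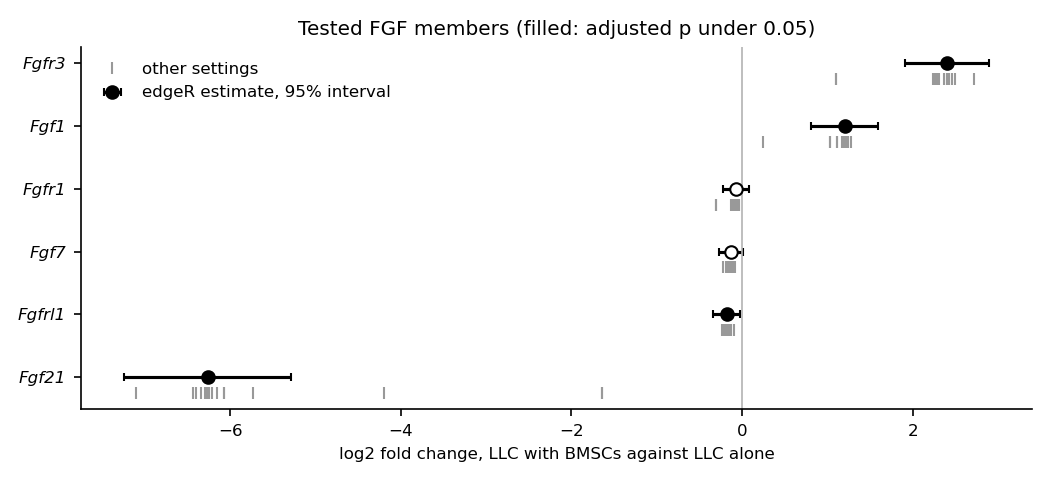
Log2 fold change of LLC with BMSCs against LLC alone (x axis) for the 6 FGF members that were tested, with the 95% interval of the edgeR estimate (filled circles: adjusted p under 0.05; open circles: not called) and the estimates of the other settings as grey ticks. Fgfr3 (2.40) and Fgf1 (1.20) lie above 0, Fgf21 (-6.26, a fitted value that depends on the prior count because LLC with BMSCs was at the limit of detection) lies far below, and the other three lie within 0.20 of 0.

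The order of the members by level was led by the same 3 genes in both groups. In LLC alone, Fgfr1 was followed by Fgf7, Fgfrl1, Fgf21 and Fgfr3. Every replicate of each of these lay above every replicate of the next gene. Fgf1 and Fgf2 followed and overlapped in range, as did Fgfr4, Fgf13 and Fgfr2 at the bottom. In LLC with BMSCs, Fgfr1, Fgf7 and Fgfrl1 were followed by Fgfr3, Fgf1 and Fgf2, and the genes down to Fgf1 each lay apart from the next. Fgf2 (0.04 to 0.18 FPKM) overlapped in range with Fgf21 (0 to 0.05 FPKM), and Fgf13, Fgf21 and Fgfr2 overlapped near 0. Fgf21 thus went from the fourth place to among the last.

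For the most abundant ligand and receptor, the genes with the most similar pattern over the 6 libraries were sought by Pearson correlation of log2 CPM, as a description. For Fgf7 these were Sumf2 (r = 0.999), Ostf1 (r = 0.998) and Chmp2a (r = 0.998), and 642 of 12705 genes had r over 0.95. For Fgfr1 these were Ap2a1 (r = 0.993), Gse1 (r = 0.987) and Cd276 (r = 0.987), and 29 genes had r over 0.95. The 6 points share their 2 groups and the close pairs of libraries described above.

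Of 32 genes for co-receptors, heparan sulfate proteoglycans and the enzymes that make or trim heparan sulfate, 23 were tested, of which 12 rose (52.2%, against 31.5% of all tested genes) and 6 fell (26.1%, against 31.3%). With the length trend removed the counts were 11 and 10. The median log2 fold change was 0.30, against 0.01 over all tested genes, and the summed FPKM of the list went from 548 to 604.9 in LLC alone to 723.8 to 757.9 in LLC with BMSCs. Of the 12 genes that rose, Gpc4, Gpc6 and Flrt3 passed the filter on low counts only through LLC with BMSCs. Of the 6 that fell, Flrt1 and Klb passed it only through LLC alone. Sdc4 and Sdc1, syndecans that carry heparan sulfate at the cell surface, rose from 64.3 ± 1.11 to 122 ± 3.54 FPKM and from 101 ± 1.36 to 166 ± 3.96 FPKM (SD, n = 3). Hspg2, the basement membrane proteoglycan perlecan, rose from 33.0 ± 12.01 to 66.4 ± 10.2 FPKM (log2 fold change 0.99), but without LLC with BMSCs replicate 1 it no longer passed (adjusted p = 0.0551, edgeR's quasi-likelihood test).

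The members of the list that fell included Glce, the epimerase that makes iduronic acid in heparan sulfate, which fell from 62.6 ± 6.09 to 27.5 ± 1.45 FPKM (log2 fold change -1.21). Sdc2 fell from 46.6 ± 1.30 to 25.9 ± 0.55 FPKM, and Fgfbp3, a carrier protein that releases FGFs from the matrix, fell from 2.07 ± 0.21 to 1.32 ± 0.08 FPKM. The syndecans therefore did not move together. Klb, the co-receptor for FGF21, was at 0.18, 0.13 and 0.13 FPKM in LLC alone and at 0.05, 0.05 and 0.08 FPKM in LLC with BMSCs, and fell by 1.30 on the log2 scale (adjusted p = 0.00547, edgeR's quasi-likelihood test). Its level was very low in both groups.

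**Figure D3:**
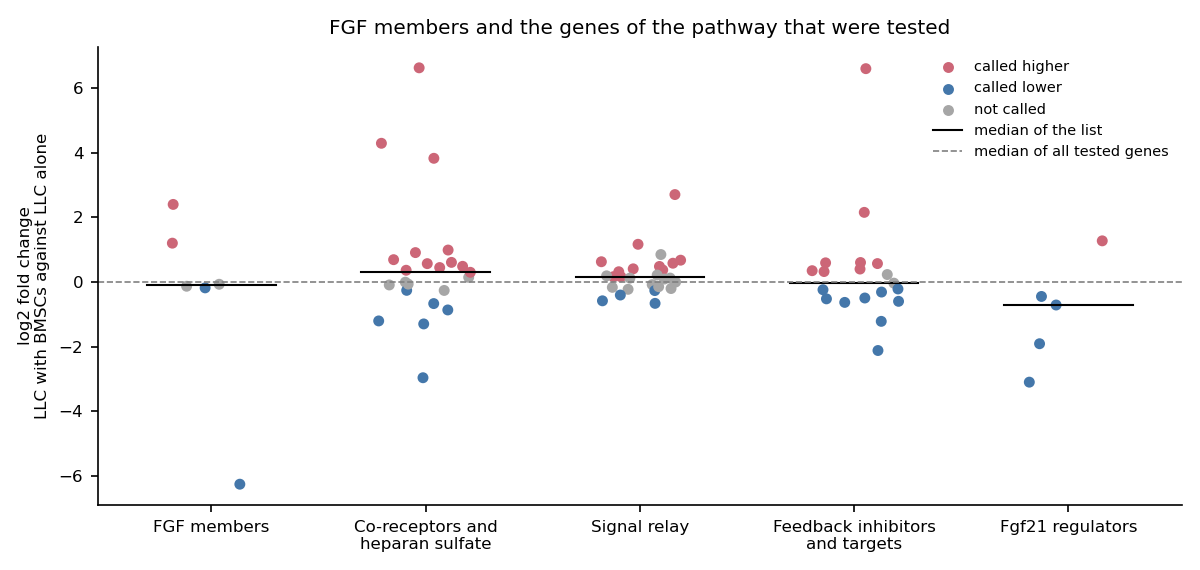
Log2 fold change of LLC with BMSCs against LLC alone (y axis) for each tested gene of the FGF members and of 4 lists of FGF pathway genes, coloured by call, with the median of each list (black line) and of all tested genes (dashed line, 0.01). The list of co-receptors and heparan sulfate genes has 12 genes called higher and 6 lower, while the list of feedback inhibitors and targets has 8 and 9.

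Of 27 genes that relay the signal from the receptors, all were tested, 11 rose (40.7%, against 31.5% of all tested genes), 4 fell (14.8%, against 31.3%) and 12 were not called (median log2 fold change 0.16). With the length trend removed 9 rose and 10 fell, so that the majority turned, and without LLC alone replicate 3 the counts were 16 and 8. Rps6ka1, among the 11 that rose, passed the filter only through LLC with BMSCs. Map2k1, the kinase MEK1, rose from 36.5 ± 1.83 to 83.2 ± 3.82 FPKM (SD, n = 3; log2 fold change 1.17, adjusted p = 5.42e-06 in edgeR's quasi-likelihood test). Grb2 and Sos1, which link the receptor complex to RAS, rose by 0.63 and 0.67 on the log2 scale. Gab1, an adaptor toward PI3K, fell by 0.66, and the kinases Araf and Mapk3 (ERK1) fell by 0.58 and 0.41. Within the kinase cascade genes therefore moved in both directions.

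Of 21 feedback inhibitors and targets of FGF signalling, 19 were tested (median log2 fold change -0.04). Of these, 8 rose (42.1%, against 31.5% of all tested genes) and 9 fell (47.4%, against 31.3%). Among genes averaging 100 or more normalized counts, the largest falls were in Dusp4, a nuclear MAPK phosphatase (71.3 ± 8.59 to 16.6 ± 0.79 FPKM), in Myc (684 ± 5.35 to 298 ± 20.7 FPKM) and in Spry2, a sprouty inhibitor (16.7 ± 0.96 to 10.9 ± 0.09 FPKM; SD, n = 3). Egr1, an immediate early transcription factor, rose most, from 2, 0 and 0 counts in LLC alone to 85, 69 and 91 in LLC with BMSCs, a ratio of the normalized counts of 114.7 with a counting interval of 31.4 to 952. It is 1 of the 8 genes that rose, and passed the filter only through LLC with BMSCs. Among genes averaging 100 or more normalized counts, the largest rises were in Fos (0.53 ± 0.10 to 2.43 ± 0.14 FPKM), in the ERK phosphatase Dusp5 (2.97 ± 0.20 to 4.56 ± 0.56 FPKM) and in Spred1 (15.1 ± 1.23 to 23.2 ± 0.74 FPKM).
Dusp6, the phosphatase of ERK, was at 26.9, 28.0 and 27.4 FPKM in LLC alone and at 25.9, 27.8 and 27.6 FPKM in LLC with BMSCs, with overlapping ranges (log2 fold change -0.04, adjusted p = 0.588 in edgeR's quasi-likelihood test). Spry4 fell by 0.50 and Etv5 by 0.24 on the log2 scale, while Etv4 was not called (log2 fold change 0.23, adjusted p = 0.0705).

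The genes known to control Fgf21 were compared with it. Of 8 such regulators, 5 were tested, of which 4 fell and 1 rose (median log2 fold change -0.71). Among all tested genes 31.3% fell and 31.5% rose. Ppara was not listed, and Pparg and Ppargc1a did not pass the filter. The list was not divided into genes that raise and genes that lower Fgf21. Atf4, the main transcription factor of the integrated stress response, was at 622, 588 and 709 FPKM in LLC alone and at 382, 403 and 401 FPKM in LLC with BMSCs, and fell by 0.71 on the log2 scale. Ddit3, the stress factor CHOP, was at 244, 244 and 294 FPKM in LLC alone and at 29.8, 30.9 and 31.8 FPKM in LLC with BMSCs. It fell by 3.10 ± 0.09 (SE; adjusted p = 3.29e-07, edgeR's quasi-likelihood test).

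Trib3, a pseudokinase induced by ATF4 and CHOP, fell by 1.91 (85.0 ± 5.17 to 22.9 ± 0.32 FPKM; SD, n = 3). Nfe2l2, the oxidative stress factor NRF2, fell by 0.45. The 2 groups did not overlap in these 4 genes or in Fgf21, as was so for 70.6% of all tested genes. The count of 4 lower was the same in every other setting. Mlxipl, the carbohydrate response factor, rose instead, by 1.27 at a low level (0.163 ± 0.04 to 0.403 ± 0.05 FPKM). The promoters of Atf4, Ddit3 and Trib3 did not hold the motif found in that of Fgf21 within the same window.

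**Figure D4:**
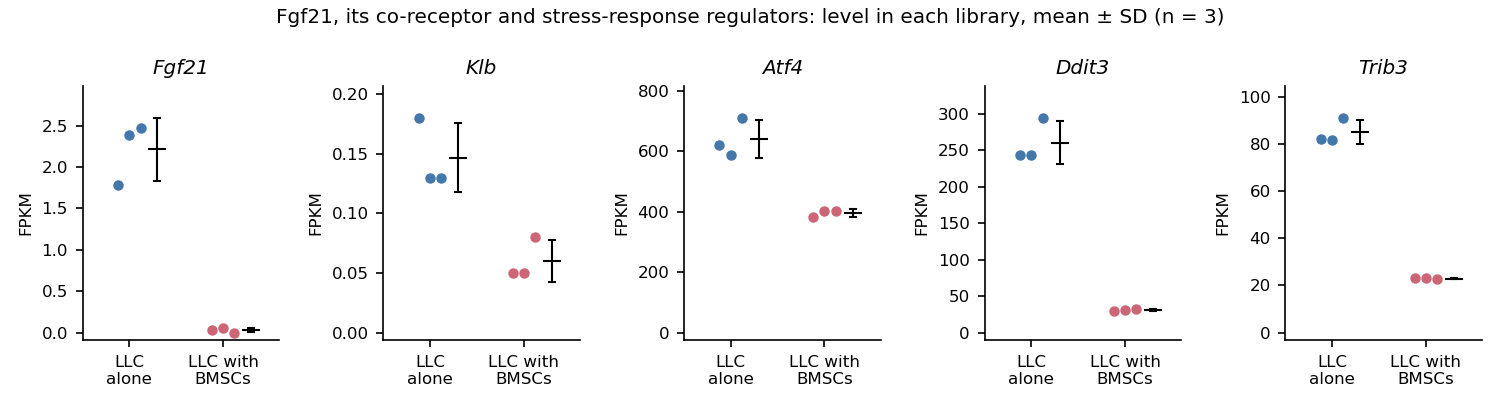
FPKM (y axis, linear, a separate scale in each panel) of Fgf21, its co-receptor Klb and the stress-response genes Atf4, Ddit3 and Trib3 in each library, with the mean and SD of each group (n = 3). In each of the 5 panels the 3 libraries of LLC with BMSCs lie below the 3 of LLC alone.

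Markers of other cells differed between the groups beside these results. Of 12 markers of BMSCs and fibroblasts, 8 were tested and all 8 rose, against 31.5% of all tested genes. Among these 8, Col1a1, Dcn and Lum had at most 8 counts in any library of LLC alone. They passed the filter only through LLC with BMSCs, so that a fall could not have been seen in them. The summed FPKM of the 12 was 47.8 to 58.0 in LLC alone and 126 to 130 in LLC with BMSCs. Col3a1 held most of it (36.8 to 43.6 FPKM against 99.0 to 101.7 FPKM), the mean of Dcn went from 0.110 to 6.31 FPKM and that of Col1a1 from 0.0133 to 2.003 FPKM, while Thy1 and Fap, listed at 0 in LLC alone, had at most 2 counts in LLC with BMSCs. Cxcl12 went from 0 to 7 to 12 counts, and Postn had 0 to 4 counts in LLC alone and 2 to 5 in LLC with BMSCs. Of 10 markers of macrophages and neutrophils, 8 rose and 1 fell (Cd68), against 31.5% and 31.3% of all tested genes. They summed to 17.1 to 20.5 FPKM in LLC alone and 58.6 to 67.7 FPKM in LLC with BMSCs, there led by S100a8 and S100a9. Some of them, such as Adgre1 (0 counts in LLC alone) and S100a8 (at most 2), passed the filter only through LLC with BMSCs. Of 8 endothelial markers 2 were tested and neither was called (sums of 0.25 to 0.42 FPKM), and keratinocyte markers summed to at most 0.03 FPKM. The part of these cells in the higher levels of Fgfr3, Fgf1, Fgf10 and Fgf11, and in the lower levels of Fgf21, was not tested.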

How the data were processed

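RNA-seq of RFP-positive LLC cells was analysed in 6 libraries, 3 for each of the groups LLC alone and LLC with BMSCs that the labels define. According to the methods, mRNA was enriched with oligo-dT and sequenced on the BGISEQ-500, whereas the labels name Illumina protocols. The authors deposited estimated counts (expected counts, not normalized, 21.9% to 23.2% of them not whole), a gene length in bases and FPKM values per gene and transcript. The submitters' processing notes name HISAT, StringTie, Cufflinks, GATK and mm8 without their roles. The program that made the counts and its use of strand are not given in the sources used here. Reads shared by overlapping genes or transcripts can be divided among them in such counts.

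Estimated counts were rounded and tested with edgeR 4.0.16 in R 4.3.3 (default filter on low counts, TMM, quasi-likelihood test, Benjamini-Hochberg adjustment over 13353 genes, threshold 0.05). Intervals are at 95%. A group whose libraries all had at most 3 counts was taken as at the limit of detection, and folds against it are bounds or count ratios with exact binomial intervals, for counting error only. An exact permutation test of 3 against 3 libraries cannot give a two-sided p below 0.1 and was not used for calls. DESeq2 1.42.0, limma 3.58.1 on log2(FPKM + 1) or log2(FPKM + 0.1), other scalings and filters, length and GC trends, summed close pairs and leaving out libraries were the alternatives.

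The members and gene lists were chosen with earlier results of these data known. Besides the 10 members, the genes named were, in each list, the 3 called genes with the largest rise and the 3 with the largest fall among those averaging 100 or more normalized counts, and the defining markers. Fgf10, Klb, Egr1, Dusp6, Spry4, Etv4, Etv5, Scn1a, Scn11a, Mlxipl and Nfe2l2 were named after their values had been seen where this rule did not reach them. Ppara, Pparg, Ppargc1a and Mapk8ip2 were named to complete the account of their lists. Gpc4, Gpc6, Flrt1, Flrt3 and Rps6ka1 were named only to state how they passed the filter. The 27 gene symbols stored as dates were restored from their identifiers.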

Additional observations from a re-analysis of the deposited data

How the results depend on the processing

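Gene by gene, log2 fold changes were compared across the alternatives for the tested members and for the genes named by the rule on largest rises and falls. None of these changed sign under the alternatives that were run. The other genes named, such as Fgf10, Klb, Egr1, Dusp6 and the cell markers, were not compared in this way. Fgfr3, Fgf1 and Fgf21 were called in every setting that tested them, with log2 fold changes of 1.11 to 2.71, 0.24 to 1.28 and -7.10 to -1.64. The lowest sizes came from FPKM with a pseudocount, which shrinks low values. The number of members called higher was 2, and 1 with limma on log2(FPKM + 1) or on log2(FPKM + 0.1) with a filter, which Fgf1 does not pass. It was 3 without a filter on low counts. The number called lower was 2, and 1 with DESeq2, with library size without TMM, with no filter, with at least 10 counts in every library (a filter that removes Fgf21), with the 3 limma settings, with close pairs summed and at an adjusted p under 0.001 with a log2 fold change of 1 or more in size. At that last threshold 910 of all tested genes were higher and 723 lower, against 4210 and 4183. The balance over all tested genes turned to more lower than higher with upper-quartile scaling (3969 higher, 4404 lower), with the length trend removed (4001 and 5358), with length and GC trends removed (3999 and 5525), with at least 10 counts in every library (3758 and 3832) and without LLC with BMSCs replicate 1 (3771 and 3795). Leaving out each library gave 1 to 2 members called lower and 2 called higher. With the length trend removed 4 members were lower, Fgf7 and Fgfr1 included, and with length and GC trends removed, a setting added after seeing the data, 3 were (Fgf21, Fgf7 and Fgfr1; Fgfrl1 had an adjusted p of 0.273). The cause was not tested.

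Replicate numbers did not pair the libraries: the deviations of same-numbered libraries correlated at 0.0762, -0.106 and 0.0572. The fit with the replicate block called 2 members higher and 1 lower, since Fgfrl1 had an adjusted p of 0.102 under the block, and called 4161 genes higher and 4058 lower. CPM per kilobase gave 8.27 for Fgf7 and 4.49 for Fgfrl1 in LLC with BMSCs, and left the other members' levels within 1 SD. With the length trend removed, with or without GC, the signal relay list had 9 higher and 10 lower and the co-receptor list 11 and 10. List counts ranged over the alternatives from 10 to 15 higher and 4 to 10 lower for co-receptors, 8 to 16 and 3 to 10 for the signal relay, and 6 to 9 and 7 to 10 for feedback genes. At this depth, Fgf2, Fgf13, Fgfr2 and Fgfr4 had too few counts for a comparison.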
